A study of Oryza sativa with 18 samples.

Results

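The 9 genes described here are core genes of the circadian clock in Nipponbare, a japonica rice: LHY, the 5 pseudo-response regulators PRR1, PRR37, PRR73, PRR95 and PRR59, GIGANTEA (GI) and 2 EARLY FLOWERING 3 genes (ELF3-1 and ELF3-2). They were taken by locus identifier from a table of 38663 genes, and all 9 were among the 23355 genes that passed the filter on low values. Field-grown Nipponbare plants gave 3 groups: panicles at flowering (14 August), panicles at booting (3 August) and flag leaves at flowering, for which no day is labelled. All organs were collected at about 3 PM, so every value is a reading from 1 time of day, and a difference in level and a difference in the phase of a daily rhythm cannot be told apart. Each group has 3 libraries of fragmented poly(A) RNA (input) and 3 of fragments enriched with an antibody against N6-methyladenosine (m6A), a methyl mark on adenosines of mRNA. Whether replicates are from different plants is not labelled, so p-values measure only the spread between these samples, which may be technical. The panicle stages were also collected on different days, and stage and day cannot be told apart.

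Plant clocks are built from transcription factors that repress each other in turn through the day. In Arabidopsis, LHY peaks around dawn and represses evening genes, pseudo-response regulators repress LHY from morning to evening, and ELF3 acts in the evening complex, which represses genes at night. GIGANTEA links the clock to flowering, and in rice it acts upstream of the heading date genes that control the florigen Hd3a.

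Expression was measured as FPKM (fragments scaled to transcript length and to library size) in the inputs, at a depth of approximately 29.2 to 33.0 M fragments per library. Changes are log2 differences of FPKM + 1, tested with limma in 1 fit of all 9 inputs, and p-values were adjusted by Benjamini-Hochberg over all 23355 genes. Calls needed both an adjusted p under 0.05 and a log2 change of at least 1 in either direction. The labelled organs were checked with 4 marker genes each. Markers of florets summed to 1042 to 1121 FPKM in flowering panicles, 614 to 624 FPKM in booting panicles and 4.91 to 7.35 FPKM in flag leaves, where 1 of 4 was at 0 in replicate 3. Markers of pollen summed to 5427 to 6665 FPKM in flowering panicles, 12.5 to 13.7 FPKM in booting panicles and 6.34 to 17.96 FPKM in flag leaves. Markers of green tissue summed to 2402 to 2785 FPKM in flowering panicles, 89.6 to 132 FPKM in booting panicles and 18898 to 19328 FPKM in flag leaves. Most of the leaf sum was RuBisCO activase, with a mean of 15595 FPKM. Against the leaf, 3 green markers fell and 1 rose at flowering (log2 change 2.09), while all 4 fell at booting. The 1 that rose, photosystem II 22 kDa protein (LOC_Os04g59440), averaged 377 FPKM at flowering, 7.71 FPKM at booting and 87.9 FPKM in the leaf.

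The clock genes as a group were lower in panicles than in flag leaves, with 1 exception, ELF3-2. Summed over the 9 genes, expression was 619 to 636 FPKM in flowering panicles, 470.0 to 558 FPKM in booting panicles and 1369 to 1437 FPKM in flag leaves. These sums made up 0.109 to 0.113% of all FPKM in flowering panicles, 0.0908 to 0.110% in booting panicles and 0.258 to 0.271% in flag leaves. Against flag leaves, 5 clock genes fell and 1 rose in flowering panicles, and 5 fell and 1 rose in booting panicles. The 2 comparisons use the same 3 leaf libraries. Among all genes tested, 42.5% were called between flowering panicles and flag leaves, 11.5% lower and 31.0% higher in the panicle. Between booting panicles and flag leaves 54.0% were called, 17.7% lower and 36.4% higher. The median change of the clock genes was -1.03 in flowering panicles and -1.55 in booting panicles, against medians of 0.44 and 0.51 over all genes in the same comparisons. In these bulk samples, fewer cells of a type and less RNA per cell cannot be told apart, and the marker sums of green tissue and floret moved with the contrast between panicle and leaf. Their part in the clock genes' differences was not tested.

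The scaling moved the background. After quantile normalization, the median change of all genes against flag leaves was -0.12 for flowering panicles and 0.00057 for booting panicles. The share of higher calls among all called genes was 72.9% for flowering panicles and 67.3% for booting panicles on the deposited scale, and 47.1% and 50.6% after quantile normalization. With libraries scaled to equal sums the medians were 0.37 and 0.55. Under both scalings 8 clock genes were lower and 1, ELF3-2, was higher in each panicle stage than in flag leaves.

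On the deposited scale every library of both panicle stages lay below every leaf library for those 8 genes, and above for ELF3-2. Among all genes tested, 25.8% had every flowering panicle library below, and 59.5% every flowering panicle library above, the leaf libraries. For booting panicles the shares were 29.2% below and 58.7% above.

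**Figure D1:**
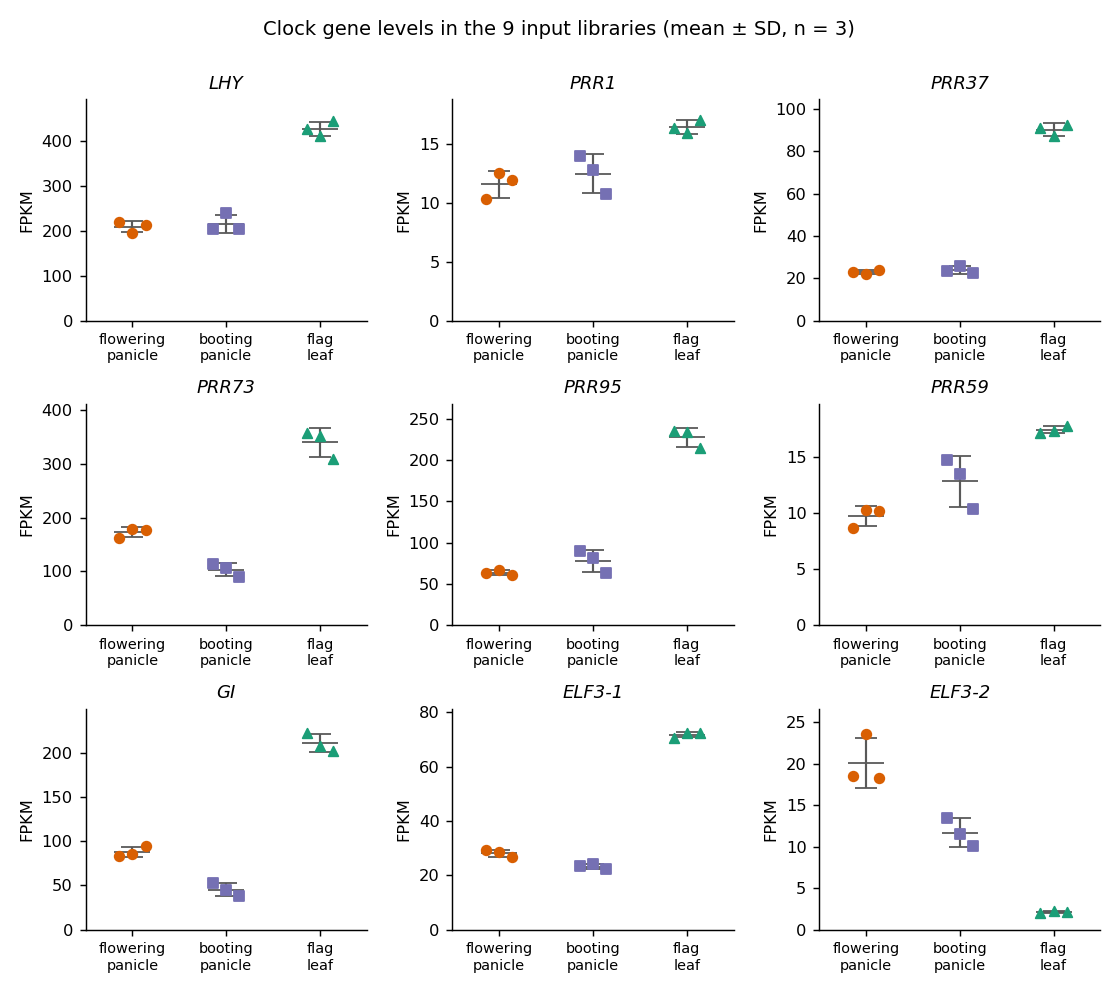
FPKM of each clock gene (vertical axes, from 0) in the 3 flowering panicle, 3 booting panicle and 3 flag leaf inputs; points are libraries, horizontal marks and bars are means and SD. For 8 genes the 3 leaf libraries lie above all 6 panicle libraries, and for ELF3-2, at 2.06 to 2.23 FPKM in leaves, they lie below.

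LHY, a MYB transcription factor (LOC_Os08g06110, chromosome 8, 3365730 to 3373434, plus strand; the genome build is not given in the sources used here), was the highest of the 9 genes in every group. It had 220.2, 194 and 212 FPKM in flowering panicles, 204, 238 and 203 FPKM in booting panicles and 425, 411 and 442 FPKM in flag leaves. All leaf libraries were above all panicle libraries, and the 2 panicle stages overlapped. Against flag leaves, LHY was 2.04-fold lower in flowering panicles and was called (log2 change -1.03, SE 0.091, adjusted p = 2.11e-06 in limma). In booting panicles it was 1.98-fold lower and not called (log2 change -0.99, adjusted p = 2.11e-06). Both values sit at the fold threshold. The first call was lost without flowering panicle replicate 2 (-0.97) and without flag leaf replicate 3 (-0.998), and the second comparison was called without booting panicle replicate 2 (-1.06) and without flag leaf replicate 2 (-1.01). Between panicle stages the log2 change of LHY was -0.038 (SE 0.091, adjusted p = 0.713). LHY made up 33.4 ± 2.16% of the summed clock gene FPKM in flowering panicles, 41.0 ± 3.38% in booting panicles and 30.4 ± 1.65% in flag leaves (SD, n = 3 each).

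PRR1 (LOC_Os02g40510, chromosome 2, 24569294 to 24572560, plus strand) is the rice counterpart of the Arabidopsis evening gene TOC1. It had 10.3, 12.5 and 11.9 FPKM in flowering panicles, 13.9, 12.8 and 10.7 FPKM in booting panicles and 16.3, 15.9 and 17.0 FPKM in flag leaves. The panicle stages overlapped and the leaf libraries stood apart above both. PRR1 was not called in any comparison, with log2 changes of -0.47 (SE 0.10, adjusted p = 0.00135) for flowering panicles and -0.38 (SE 0.10, adjusted p = 0.00505) for booting panicles against flag leaves. LHY stood at 18.2 ± 2.93 times the level of PRR1 in flowering panicles, 17.4 ± 2.43 times in booting panicles and 25.9 ± 0.125 times in flag leaves (ratio of FPKM within a library; SD, n = 3 each).

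PRR37 and PRR73 are the pair of rice regulators most like Arabidopsis PRR7 and PRR3, and share an orthology term in the deposited table. PRR37, also known as the heading date gene DTH7 (LOC_Os07g49460, chromosome 7, 29616705 to 29629223, plus strand), had 22.9, 22.04 and 23.9 FPKM in flowering panicles, 23.2, 25.9 and 22.3 FPKM in booting panicles and 91.1, 87.0 and 92.5 FPKM in flag leaves. The 6 panicle libraries overlapped between stages and lay far below the leaf libraries. PRR37 fell 3.93-fold in flowering panicles (log2 change -1.93, SE 0.068, adjusted p = 2.21e-09) and 3.79-fold in booting panicles (-1.88, SE 0.068, adjusted p = 1.34e-09) against flag leaves.

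PRR73 (LOC_Os03g17570, chromosome 3, 9759479 to 9768690, minus strand) differed between all 3 groups. It had 162, 179 and 178 FPKM in flowering panicles, 113, 106 and 89.8 FPKM in booting panicles and 358, 353 and 309 FPKM in flag leaves, and no 2 groups overlapped. The fall in booting panicles against flag leaves was 3.29-fold (log2 change -1.71, SE 0.10, adjusted p = 6.18e-08). In flowering panicles PRR73 stood 1.97-fold under flag leaves, just inside the threshold and not called (-0.97, SE 0.10, adjusted p = 8.13e-06). It was called there with equal library sums (-1.05) and without flag leaf replicate 3 (-1.04). Flowering panicles held 1.67 times the level of booting panicles (log2 change 0.74, SE 0.10, adjusted p = 7.63e-05), which was not called at the fold threshold. The ratio of PRR73 to PRR37 was 7.53 ± 0.539 in flowering panicles, 4.34 ± 0.478 in booting panicles and 3.77 ± 0.385 in flag leaves (SD, n = 3 each), and its lowest flowering library, 7.06, was above the highest of the others, 4.89.

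PRR95 and PRR59 are rice relatives of Arabidopsis PRR9 and PRR5, repressors active through the day. PRR95 (LOC_Os09g36220, chromosome 9, 20885172 to 20889843, minus strand) had 63.6, 66.5 and 60.8 FPKM in flowering panicles, 89.7, 81.1 and 63.1 FPKM in booting panicles and 235, 234 and 215 FPKM in flag leaves. It fell 3.579-fold in flowering panicles (log2 change -1.82, SE 0.12, adjusted p = 1.55e-07) and 2.92-fold in booting panicles (-1.55, SE 0.12, adjusted p = 3.68e-07) against flag leaves, while the panicle stages overlapped. For PRR59 (LOC_Os11g05930, chromosome 11, 2788996 to 2793735, plus strand), described in the deposited table only as a partial protein with the same orthology term as PRR95, the values were 8.70, 10.3 and 10.2 FPKM in flowering panicles, 14.7, 13.4 and 10.3 FPKM in booting panicles and 17.1, 17.3 and 17.8 FPKM in flag leaves.

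PRR59 was the lowest clock gene in flowering panicles. Its 3 flowering libraries lay just below the 3 booting libraries, with 10.27 FPKM in the highest flowering and 10.31 FPKM in the lowest booting library. Its log2 change was -0.78 (SE 0.12, adjusted p = 0.000113) in flowering panicles and -0.43 (SE 0.12, adjusted p = 0.0058) in booting panicles against flag leaves, neither called. After quantile normalization the flowering panicle change was -1.21 and called. PRR95 stood at 6.59 ± 0.682 times PRR59 in flowering panicles, 6.08 ± 0.0412 times in booting panicles and 13.1 ± 0.889 times in flag leaves (ratio within a library; SD, n = 3 each). The leaf ratios, 12.1 to 13.7, did not overlap those of panicles, 5.97 to 7.32 in flowering and 6.04 to 6.12 in booting panicles.

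GI, a large plant-specific clock protein (LOC_Os01g08700, chromosome 1, 4329152 to 4338486, minus strand), had 83.5, 85.3 and 94.2 FPKM in flowering panicles, 53.1, 44.6 and 38.4 FPKM in booting panicles and 222, 208 and 202 FPKM in flag leaves. The 3 groups were separate and ordered leaf, flowering panicle, booting panicle. GI fell 2.40-fold in flowering panicles (log2 change -1.26, SE 0.11, adjusted p = 1.69e-06) and 4.64-fold in booting panicles (-2.20, SE 0.11, adjusted p = 1.35e-08) against flag leaves. The second was the largest decrease among the 9 clock genes in that comparison. The ratio of GI to LHY within a library was 0.421 ± 0.0359 in flowering panicles, 0.212 ± 0.0419 in booting panicles and 0.495 ± 0.0342 in flag leaves (SD, n = 3 each). Against PRR1, GI stood at 7.61 ± 0.689 times in flowering panicles, 3.63 ± 0.164 times in booting panicles and 12.8 ± 0.887 times in flag leaves (SD, n = 3 each).

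The 2 ELF3 genes moved in opposite directions against the leaf. ELF3-1, a heading date gene of rice (LOC_Os06g05060, chromosome 6, 2234119 to 2239162, minus strand), had 29.2, 28.5 and 26.7 FPKM in flowering panicles, 23.3, 24.1 and 22.3 FPKM in booting panicles and 70.6, 72.5 and 72.2 FPKM in flag leaves. It fell 2.55-fold in flowering panicles (log2 change -1.32, SE 0.058, adjusted p = 1.04e-08) and 3.09-fold in booting panicles (-1.59, SE 0.058, adjusted p = 1.48e-09) against flag leaves. ELF3-2 (LOC_Os01g38530, chromosome 1, 21637031 to 21643111, minus strand) is called EARLY FLOWERING 3 in the deposited peak lists and a nematode responsive protein in the deposited expression table, where its orthology term is that of ELF3-1.

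ELF3-2 had 18.5, 23.6 and 18.2 FPKM in flowering panicles, 13.5, 11.6 and 10.03 FPKM in booting panicles and 2.06, 2.23 and 2.11 FPKM in flag leaves. The groups were again separate, with the leaf lowest. ELF3-2 rose 9.42-fold in flowering panicles (log2 change 2.74, SE 0.12, adjusted p = 1.1e-08) and 5.48-fold in booting panicles (2.01, SE 0.12, adjusted p = 6.84e-08) against flag leaves. The log2 change on FPKM + 1 understates the ratio of this gene, whose leaf level is low. Within a library, ELF3-1 stood at 1.42 ± 0.19 times ELF3-2 in flowering panicles, 2.01 ± 0.252 times in booting panicles and 33.6 ± 1.03 times in flag leaves (SD, n = 3 each). ELF3-2 made up 3.21 ± 0.501% of clock gene FPKM in flowering panicles, 2.22 ± 0.208% in booting panicles and 0.152 ± 0.00821% in flag leaves.

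**Figure D2:**
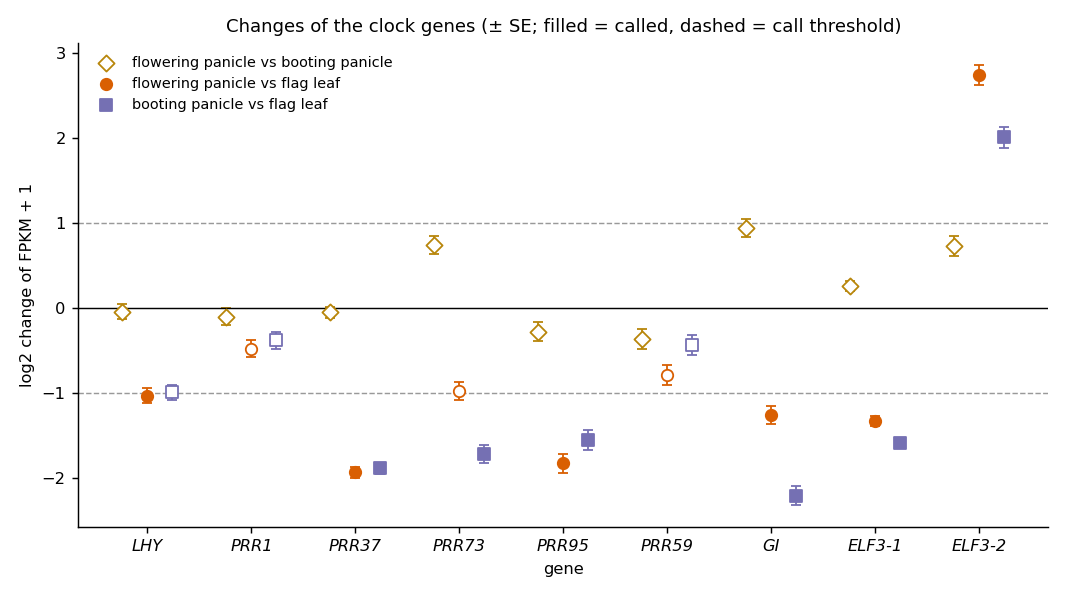
Log2 change of FPKM + 1 with its SE (vertical axis) for each clock gene in 3 comparisons; filled symbols are called genes and dashed lines mark the fold threshold. Changes between panicle stages all lie within the threshold, while against flag leaves they range from -1.93 to 2.74 in flowering panicles and from -2.20 to 2.01 in booting panicles.

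Between the 2 panicle stages no clock gene was called, whereas 33.4% of all genes tested were, 18.1% higher and 15.3% lower at flowering. In 5 of the 9 the groups did not overlap: GI, PRR73, ELF3-2 and ELF3-1 stood higher and PRR59 lower in every flowering library. Among all genes tested, 36.1% had every flowering library above, and 43.4% every flowering library below, the booting libraries. The same 5 genes had an adjusted p under 0.05 in limma without reaching the fold threshold, as against 78.1% of all genes tested with such a p. At an unadjusted p under 0.05 in limma they were 6, with PRR95 added, against 79.4% of all genes tested. GI came closest, at 1.93 times the booting level (log2 change 0.95, SE 0.11, adjusted p = 1.92e-05), and was called without booting panicle replicate 1 (1.06). ELF3-2 stood at 1.72 times (0.73, SE 0.12, adjusted p = 0.000289), ELF3-1 at 1.21 times (0.26, SE 0.058, adjusted p = 0.00187) and PRR59 at 0.758 times the booting level (-0.36, SE 0.12, adjusted p = 0.0172). PRR95 had a log2 change of -0.27 (SE 0.12, adjusted p = 0.0508), PRR1 of -0.096 (SE 0.10, adjusted p = 0.397) and PRR37 of -0.048 (SE 0.068, adjusted p = 0.53).

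Booting panicle replicate 3 was the lowest library of its group for 9 of the 9 clock genes, and for 40.8% of all genes tested. Its clock genes had a median log2 difference of -0.29 from the mean of the other booting libraries, against -0.018 over all genes tested. Booting panicle replicate 1 was the highest of its group for 6 of the 9, with a median difference of 0.23 for clock genes and -0.0094 for all genes. In the flowering panicle and flag leaf groups, no library was lowest for more than 4 of the 9. Without booting panicle replicate 3, no clock gene was called between the stages either. PRR95 then had a log2 change of -0.42 (adjusted p = 0.00099), PRR59 of -0.49 (adjusted p = 0.000673), GI of 0.84 (adjusted p = 3.85e-05), PRR73 of 0.65 (adjusted p = 0.000184) and ELF3-2 of 0.64 (adjusted p = 0.00121) in limma.

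The order of the 9 genes by FPKM was led by LHY and PRR73 in every group. PRR95 and GI took the next places, and their ranges did not overlap in panicles, where GI was the higher in flowering and PRR95 in booting panicles. In flag leaves the ranges of the genes overlapped, with PRR95 above GI within each library. In flowering panicles PRR37 and ELF3-2 overlapped at the middle of the order. In booting panicles PRR37 overlapped with ELF3-1, PRR59 with PRR1 and PRR1 with ELF3-2. Among all tested genes, LHY stood at percentile 98.6 in flowering panicles, 99.0 in booting panicles and 99.5 in flag leaves by mean FPKM. ELF3-2, the lowest clock gene in flag leaves, was at percentile 74.2 in flowering panicles, 60.2 in booting panicles and 35.4 in flag leaves.

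The deposited m6A peak lists, 1 per group and each made from 3 immunoprecipitates and 3 inputs, placed a peak in the 3' UTR class on all 9 clock genes in all 3 groups. Every list therefore held 10 clock gene peaks, the tenth being a 5' UTR-class peak on PRR95. Of the 23355 genes tested, 63.5% had a peak in flowering panicles, 63.1% in booting panicles and 64.8% in flag leaves. Of those with at least 2 FPKM in the group, a level every clock gene reached and a limit set after its levels were seen, the shares were 70.9% in flowering panicles, 72.9% in booting panicles and 79.2% in flag leaves. These shares count peaks of any class and are not matched to the levels of the clock genes. Group means of the clock genes were 9.72 FPKM or more, except for ELF3-2 in flag leaves (2.13 FPKM). The 3' UTR class held 78.5% of all 19502 peaks in flowering panicles, 79.7% of 19083 in booting panicles and 79.2% of 19549 in flag leaves. Fold is the authors' ratio of immunoprecipitate to input and is used here only to describe, rank and compare peaks within a list, since a list has no replicate values and no test between groups was possible.

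The 3 lists placed these peaks over common stretches, with edges that differed. The part of each 3' UTR-class peak common to the 3 lists covered 94.1% of the shortest peak for ELF3-1 and 100% for the other 8 genes, and likewise 100% for the 5' UTR-class peak of PRR95. The 3' UTR-class peaks of PRR95 differed most, with 210 bases common to the 3 lists within a span of 20885172 to 20885530 on chromosome 9, and with 79.9% of the shorter peak shared between booting panicles and flag leaves. The LHY peak spanned 3372838 to 3373434 on chromosome 8 in flowering panicles and flag leaves and began at 3372808 in booting panicles, running to the annotated 3' end of the gene in all 3. The GI peak lay between 4329212 and 4329842 on chromosome 1 in flowering panicles, and shared its inner edge, 4329842, with both other lists.

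PRR73 had the widest single-block peak of the 9 genes in each list, 928 bases in flowering panicles, 1197 in booting panicles and 1047 in flag leaves. The PRR37 peak was listed with 2 blocks, of 29 and 749 bases, in flowering panicles and flag leaves, and with 1 block of 748 bases in booting panicles. The small block lies upstream in the transcript, across a gap between 29627946 and 29628475 on chromosome 7.

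**Figure D3:**
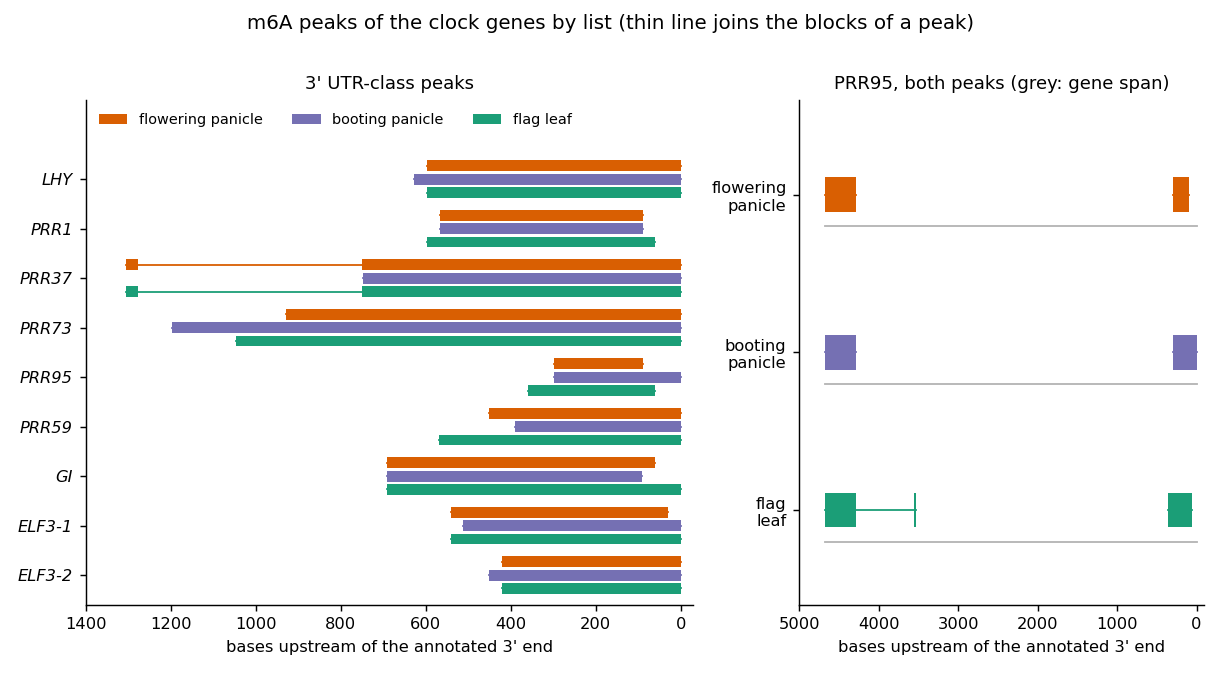
Position of the clock gene peaks, in bases upstream of the annotated 3' end of each gene (horizontal axes), with flowering panicle, booting panicle and flag leaf lists one above the other; thick bars are blocks. The left panel shows the 3' UTR-class peaks of all 9 genes, all within 1306 bases of the 3' end, and the right panel both peaks of PRR95, whose 5' UTR-class peak starts at the other end of the gene.

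By fold, the strongest 3' UTR-class peaks were those of LHY, PRR37 and PRR73. PRR73 had a fold of 18.1 in the flowering panicle list (percentile 86.7 of that list), 43.6 in the booting panicle list (percentile 96.7) and 25.2 in the flag leaf list (percentile 91.4). For PRR37 the folds were 23.1 (percentile 93.9) in the flowering, 27.7 (percentile 87.9) in the booting and 26.6 (percentile 93.1) in the leaf list. LHY had folds of 18.6 (percentile 87.5), 30.7 (percentile 90.7) and 19.8 (percentile 82.0) in the lists of flowering panicles, booting panicles and flag leaves. The median fold of all peaks was 8.1 in flowering panicles, 10.3 in booting panicles and 10.7 in flag leaves. By the listed p-value, PRR73 ranked 59 of 19502 peaks in flowering panicles, 160 of 19083 in booting panicles and 25 of 19549 in flag leaves. LHY ranked 83, 127 and 44 in the same lists. GI, at lower fold percentiles, ranked 397, 1743 and 108, so rank by p did not follow rank by fold.

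GI was near the middle to upper part of each list, with folds of 10.3 (percentile 61.4) in flowering panicles, 14.8 (percentile 64.4) in booting panicles and 12.7 (percentile 58.4) in flag leaves. ELF3-1 was at percentile 44.9 of the flowering list, 86.8 of the booting list and 53.9 of the leaf list, and ELF3-2 at 33.0, 63.7 and 35.4 of the same lists. PRR1 stood at percentile 24.2 in flowering panicles, 46.3 in booting panicles and 28.9 in flag leaves, and PRR59 at 26.02, 19.7 and 35.3 in the same lists. In flag leaves ELF3-2 had its peak (fold 7.72) at a level of 2.13 FPKM. Of 4681 tested genes between 1 and 4 FPKM in flag leaves, 60.3% had a peak.

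PRR95 was the clock gene with its higher fold at the 5' end. Its 3' UTR-class peak was among the weakest of each list, with folds of 1.54 in flowering panicles (rank 19265 of 19502), 2.28 in booting panicles (rank 18021 of 19083) and 2.19 in flag leaves (rank 18625 of 19549). Its 5' UTR-class peak, which starts at the annotated 5' end of the gene, had folds of 23.8 (percentile 94.6) in flowering panicles, 12.6 (percentile 58.0) in booting panicles and 14.4 (percentile 65.3) in flag leaves. In flowering and booting panicles this peak covered 20889456 to 20889843 on chromosome 9, and in flag leaves a second block of 27 bases was listed further into the gene, from 20888703 to 20888729.

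Genes with a peak in both UTR classes numbered 541 in flowering panicles, 502 in booting panicles and 529 in flag leaves, or 3.24, 3.04 and 3.17% of the genes with any peak in those lists. Among them the 5' fold exceeded the 3' fold in 41.6% in flowering panicles, 30.7% in booting panicles and 32.1% in flag leaves. For PRR95 the 5' fold was 15.5 times the 3' fold in flowering panicles, rank 4 of 541, 5.53 times in booting panicles, rank 25 of 502, and 6.58 times in flag leaves, rank 14 of 529. The 5' UTR-class peaks as a whole made up 5.27% of the flowering panicle list, 5.22% of the booting panicle list and 5.34% of the flag leaf list.

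**Figure D4:**
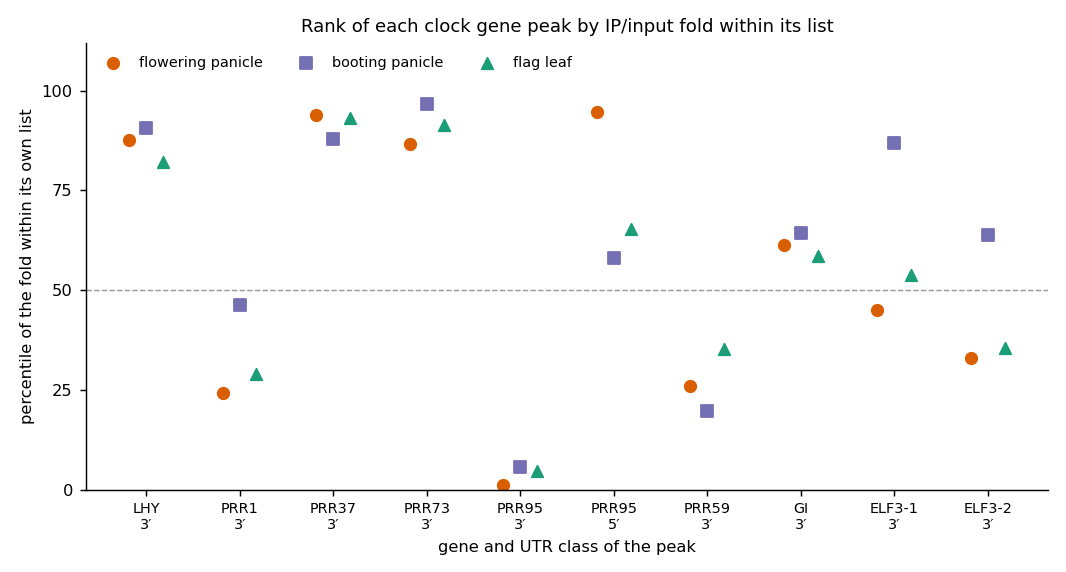
Percentile of the IP/input fold of each clock gene peak within the list of its own group (vertical axis; the dashed line is the median of a list), for flowering panicles, booting panicles and flag leaves. The 3' UTR-class peaks of LHY, PRR37 and PRR73 lie at percentile 82.0 or higher in all 3 lists, and that of PRR95 at 5.55 or lower.

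Genes known to act with or beside the clock were split in direction. Of 20 such genes found by their deposited descriptions, 19 were tested. Between flowering and booting panicles 4 rose and none fell, with a median log2 change of -0.031 against -0.086 over all genes, of which 18.1% were called higher and 15.3% lower. Against flag leaves, flowering panicles had 4 higher and 2 lower (median -0.017, all genes 0.44) and booting panicles 3 higher and 3 lower (median 0.15, all genes 0.51). The shares called over all genes were 31.0% higher and 11.5% lower in flowering panicles, and 36.4% higher and 17.7% lower in booting panicles. The 4 that rose at flowering were 2 genes described as REVEILLE 8 (LOC_Os01g06320 and LOC_Os05g07010), a REVEILLE 1 gene (LOC_Os02g46030) and ELF4-LIKE 3 (LOC_Os03g29680). The marker sums moved with the same contrast, at 5427 to 6665 FPKM in flowering and 12.5 to 13.7 FPKM in booting panicles for pollen, and at 2402 to 2785 FPKM in flowering and 89.6 to 132 FPKM in booting panicles for green tissue. Their part in the stage differences of these genes, and of the light input and photoperiod genes, was not tested. REVEILLE proteins are MYB factors related to LHY, and ELF4 is a partner of ELF3 in the Arabidopsis evening complex.

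REVEILLE 8 (LOC_Os01g06320) had 18.03, 28.6 and 26.5 FPKM in flowering panicles, 0.166, 0.228 and 0.172 FPKM in booting panicles and 0, 0.0484 and 0 FPKM in flag leaves. Its log2 change between the stages was 4.39 (SE 0.15, adjusted p = 2.55e-09). The REVEILLE 1 gene LOC_Os02g46030 averaged 8.62 ± 0.873 FPKM in flowering panicles, 1.71 ± 0.501 FPKM in booting panicles and 0.719 ± 0.269 FPKM in flag leaves (SD, n = 3 each). The other REVEILLE 1 gene, LOC_Os06g51260, had its highest level in the leaf, with 36.4 ± 3.92 FPKM in flowering panicles, 28.1 ± 5.82 FPKM in booting panicles and 150.2 ± 2.20 FPKM in flag leaves (SD, n = 3 each). It fell against flag leaves in flowering panicles (log2 change -2.02, SE 0.13, adjusted p = 2.34e-07) and in booting panicles (-2.40, SE 0.13, adjusted p = 3.9e-08).

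A REVEILLE 6 gene (LOC_Os02g45670) likewise averaged 24 ± 0.962 FPKM in flowering panicles, 13.2 ± 0.457 FPKM in booting panicles and 85.3 ± 1.85 FPKM in flag leaves. It fell in both comparisons with the leaf (log2 changes -1.79 and -2.60). The REVEILLE 6 genes LOC_Os06g01670 (-0.53 and -0.72) and LOC_Os06g45840 (-0.097 and 0.47) were not called in either. ELF4-LIKE 3 averaged 38.5 ± 1.77 FPKM in flowering panicles, 14.8 ± 0.496 FPKM in booting panicles and 31.7 ± 1.73 FPKM in flag leaves (SD, n = 3 each). It rose at flowering against booting (1.32, SE 0.063, adjusted p = 3.02e-08) and fell in booting panicles against flag leaves (-1.05, SE 0.063, adjusted p = 7.13e-08). The second call was lost with equal library sums (-0.99) and with a pseudocount of 5 (-0.89). The ELF4-LIKE 4 genes did not follow, with log2 changes between stages of -0.031 for LOC_Os08g27860 and -0.70 for LOC_Os11g40610. Neither was called in any comparison.

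The other calls of this list were of LOC_Os05g07010, higher in both panicle stages than in the leaf, and of subunits of casein kinase II, a kinase that phosphorylates LHY in Arabidopsis. Of its alpha subunit genes, LOC_Os03g10940 rose against flag leaves in flowering panicles (1.13) and LOC_Os07g02350 in booting panicles (1.12). A beta subunit rose at LOC_Os10g41520 in booting panicles (1.27). After quantile normalization those alpha subunits' changes were 0.74 for LOC_Os03g10940 and 0.90 for LOC_Os07g02350, neither called. LOC_Os03g10940 was also not called with a pseudocount of 5 (0.92). The alpha subunit gene LOC_Os03g55490 went the other way, lower than in the leaf in flowering (-0.64) and booting panicles (-0.45), and was not called.

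LOC_Os05g07010 had 2.41, 3.68 and 4.43 FPKM in flowering panicles, 2.47, 1.02 and 0.300 FPKM in booting panicles and 0.0487, 0.0767 and 0 FPKM in flag leaves. The panicle stages overlapped, and both lay above the leaf. Of its 3 calls, 2 were lost when a single library was left out. The booting panicle change against flag leaves, 1.004, was 0.64 without booting panicle replicate 1 and 0.97 without flag leaf replicate 3, and the change between stages was 0.74 without booting panicle replicate 3 and 0.94 without flowering panicle replicate 3, none of them called. Both calls were also lost after quantile normalization (0.54 against flag leaves and 0.89 between stages) and with a pseudocount of 5 (0.30 and 0.45), and the change between stages was 0.99 with equal library sums. In flowering panicles against flag leaves the call was lost with a pseudocount of 5 (0.75). LOC_Os05g07010, LOC_Os03g10940 and LOC_Os10g41520 are named to complete these counts and were chosen after their values were seen. Similar copies within these families can take each other's reads, and values of single copies are uncertain.

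Of 10 genes of light input, 3 rose and none fell at flowering against booting, with a median log2 change of 0.69, against -0.086 over all genes, of which 18.1% were called higher and 15.3% lower. A gene of transcription factor HY5 (LOC_Os06g39960), which promotes light responses, had 15.7 ± 0.647 FPKM in flowering panicles, 0.749 ± 0.141 FPKM in booting panicles and 4.68 ± 0.252 FPKM in flag leaves (log2 change between stages 3.26, SE 0.088, adjusted p = 6.69e-10). Another HY5 gene, LOC_Os01g07880, averaged 20.4 FPKM in flowering panicles, 11.5 FPKM in booting panicles and 7.83 FPKM in flag leaves. It was not called between stages (0.74). The far-red photoreceptor phytochrome A (LOC_Os03g51030) averaged 53.8 ± 1.74 FPKM in flowering panicles, 20.2 ± 1.83 FPKM in booting panicles and 13.5 ± 0.438 FPKM in flag leaves. Cryptochrome DASH (LOC_Os06g45100) rose as well, at 18.04 ± 0.861 FPKM in flowering panicles and 2.97 ± 0.825 FPKM in booting panicles. Its place in this list rests on the word cryptochrome in its deposited description. A role in light input was not tested. The other phytochromes did not rise between stages. Phytochrome C (LOC_Os03g54084) had a log2 change of -0.75 and phytochrome B (LOC_Os03g19590) of 0.0085, neither called. Phytochrome C was called lower in flowering panicles than in flag leaves (-1.07).

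Against flag leaves, light input genes split in flowering panicles, with 4 higher and 4 lower (median 0.034), while in booting panicles 1 was higher and 5 were lower (median -1.01). Over all genes, 31.0% were called higher and 11.5% lower in flowering panicles (median 0.44), and 36.4% higher and 17.7% lower in booting panicles (median 0.51). COP1 (LOC_Os02g53140), a ubiquitin ligase that acts on HY5 and in Arabidopsis on GI and ELF3, fell in flowering panicles (log2 change -1.06) and in booting panicles (-1.72), as did the COP1-like gene LOC_Os01g52640 (-1.67 and -1.89). With a pseudocount of 5 the COP1 change in flowering panicles was -0.94 and not called. A cryptochrome-1 gene, a blue light receptor (LOC_Os02g41550), rose in both (1.12 and 1.35). After quantile normalization its changes were 0.72 and 0.91, neither called, and with a pseudocount of 5 the flowering panicle change was 0.91. Another cryptochrome-1 gene, LOC_Os02g36380, went the other way and was called lower in both (-1.71 and -2.42). It averaged 10.4 FPKM in flowering panicles, 5.92 FPKM in booting panicles and 35.7 FPKM in flag leaves.

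**Figure D5:**
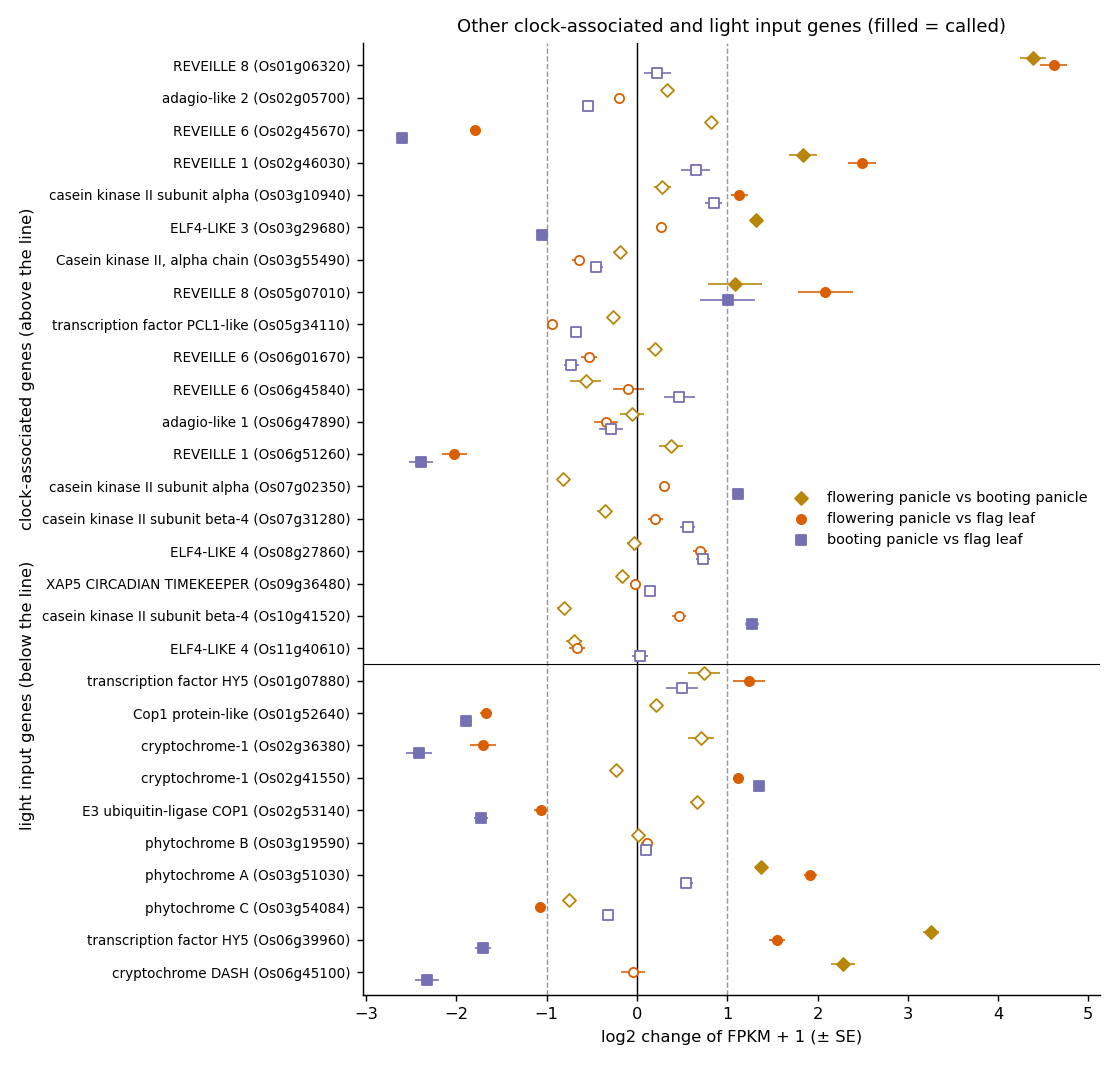
Log2 change of FPKM + 1 with its SE (horizontal axis) for the 19 tested clock-associated genes and the 10 light input genes in 3 comparisons; filled symbols are called genes and dashed lines mark the fold threshold. REVEILLE 8 (LOC_Os01g06320) stands farthest to the right, at 4.39 against booting panicles and 4.62 against flag leaves.

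Genes of the photoperiod pathway downstream of the clock were read one by one. The florigen gene Hd3a (LOC_Os06g06320) had 33.1, 27.05 and 33.5 FPKM in flowering panicles, 0.182, 0.964 and 0.616 FPKM in booting panicles and 25.8, 23.9 and 29.5 FPKM in flag leaves. It rose at flowering against booting (log2 change 4.37, SE 0.17, adjusted p = 7.1e-09) and fell in booting panicles against flag leaves (-4.14, SE 0.17, adjusted p = 3.62e-09). Between flowering panicles and flag leaves its change was 0.23 (SE 0.17, adjusted p = 0.23), with a change of sign after quantile normalization (-0.078).

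Ghd7 (LOC_Os07g15770), a repressor of heading, was listed at 0 in all flowering panicle libraries, at 0.0354, 0 and 0 FPKM in booting panicles and at 2.24, 2.00 and 1.69 FPKM in flag leaves. FKF1 (LOC_Os11g34460), an F-box photoreceptor that binds GI in Arabidopsis, averaged 3.91 ± 0.471 FPKM in flowering panicles, 2.53 ± 0.11 FPKM in booting panicles and 0.389 ± 0.0541 FPKM in flag leaves, and rose in both panicle stages against the leaf (1.82 and 1.35). After quantile normalization these changes were 0.90 and 0.54, and with a pseudocount of 5 they were 0.72 and 0.48, none of them called. Like ELF3-2 it was lowest in the leaf. Hd1 (LOC_Os06g16370) stayed under the filter, at 0.785 ± 0.0753 FPKM in flowering panicles, 0.577 ± 0.119 FPKM in booting panicles and 0.398 ± 0.12 FPKM in flag leaves. DTH8 (LOC_Os08g07740), at 0.403 FPKM or less in every library, and Ehd1 (LOC_Os10g32600), listed at 0 in all panicle libraries and at 0.977, 1.07 and 0.977 FPKM in flag leaves, were not tested.

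For LHY, PRR1 and GI, the genes with the most similar levels were found by Pearson's r of log2(FPKM + 1) over the 9 inputs, among 8658 annotated genes of at least 10 FPKM in their highest group. These 9 libraries come from 3 groups, so r mainly describes group means. Most like GI were EXECUTER 2 (LOC_Os01g01790, r = 0.998), a plastid protein, with 20.8 FPKM in flowering panicles, 12.1 in booting panicles and 46.1 in flag leaves, the ACT domain protein ACR9 (LOC_Os05g02220, r = 0.997) and a KNOX class 2 homeodomain gene (LOC_Os06g43860, r = 0.997). Most like LHY were a putative NBS-LRR resistance gene (LOC_Os05g30220, r = 0.996), the chloroplast import receptor TOC159 (LOC_Os05g05950, r = 0.993) and the ion channel gene CNGC20 (LOC_Os06g10580, r = 0.992). PRR1 had weaker matches, a DEAD-box RNA helicase 30 gene (LOC_Os01g68320, r = 0.969), a CIPK-like kinase gene (LOC_Os03g20380, r = 0.964) and a phosphoribosylaminoimidazole carboxylase gene (LOC_Os01g10280, r = 0.955).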

How the data were processed

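The 18 libraries, 9 inputs and 9 m6A immunoprecipitates, were made strand-specific by the dUTP method, per the labels' protocols. The submitters' processing notes name cutadapt, HISAT2, StringTie, HOMER and ChIPseeker; neither versions nor a peak caller, genome build or strand setting is stated there. FPKM values were deposited by the authors for the inputs only. Peak lists were deposited by the authors, 1 for each group. Per the file headers a peak has a p-value, logarithms of p and FDR (used as a ranking score), and a fold, the ratio of immunoprecipitate to input.

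From these, log2(FPKM + 1) of genes with at least 1 FPKM in 3 or more libraries was fitted in limma 3.58.1 under R 4.3.3, letting the prior variance follow a trend, and the fit was tested on simulated data. Depth was read approximately from the smallest steps of FPKM. The variance between replicates of a group was 2.76 to 8.13 times counting noise. Counts for this were rebuilt from gene spans that can include introns, which can overstate the ratio. No pair of libraries shared an identical nonzero FPKM for any gene, so none was a copy of another. Technical replicates of the same RNA are not excluded by this. Same-numbered libraries of different groups had residual correlations of -0.189 to 0.118, of which 2 of 9 exceeded 0.1, and were not treated as pairs. Members and gene lists were chosen with earlier results of these data known. Named genes are all 9 clock genes, the photoperiod genes (1 of 7 is not reported here), up to 3 called genes of the other 2 lists per comparison of smallest adjusted p that reached 5 FPKM in 1 group, and the 3 genes most like LHY, PRR1 and GI. Alternatives were other pseudocounts (0.1 and 5), no filter, equal library sums, quantile normalization, a replicate block, no trend, fits of the 2 groups alone and leaving out each library. Peaks were also read at a fold of at least 2 and at an overlap of at least 50% of the shorter peak. Sequence motifs were not analysed here.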

Additional observations from a re-analysis of the deposited data

How the results depend on the processing

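With a replicate block, 0 clock genes were called between panicle stages and 6 in each comparison with flag leaves, the same numbers as without it, and it changed no call of a clock gene. Leaving out 1 library at a time gave 0 to 1 called clock genes between stages, the 1 being GI without booting panicle replicate 1, and 5 to 6 for flowering panicles and 6 to 7 for booting panicles against the leaf. It turned the sign of uncalled stage differences of LHY (-0.077 to 0.038), PRR37 (-0.091 to 0.012), LOC_Os05g05950 (-0.064 to 0.082), LOC_Os05g30220 (-0.14 to 0.078) and LOC_Os01g68320 (-0.13 to 0.0056). With a pseudocount of 5, calls over all genes numbered 4367 between stages and, against flag leaves, 5303 for flowering and 7815 for booting panicles, in place of 7802, 9930 and 12622. Quantile normalization turned the sign of 4 uncalled changes, to 0.036 for LOC_Os05g05950 between stages, -0.026 for ELF4-LIKE 3 (LOC_Os03g29680) and -0.078 for Hd3a (LOC_Os06g06320) between flowering panicles and flag leaves, and -0.13 for LOC_Os02g46030 between booting panicles and flag leaves. No filter, the replicate block, no trend and fits of the 2 groups alone leave each log2 change as it was. There only the adjusted p could change a call, and the direction was fixed in advance. Apart from leaving out a library, 214 of 216 results for clock genes kept their direction and call. The exceptions, PRR73 and PRR59 in flowering panicles against flag leaves, are given with those genes. For the other genes followed, 24 calls were lost and 4 gained under those settings. The settings for LOC_Os05g07010, LOC_Os03g10940 and LOC_Os10g41520 were chosen after seeing the data. At a fold of at least 2 the flowering panicle list lost the 3' UTR-class peak of PRR95 and kept 9 of 10 peaks, the others kept 10, and all 10 were shared at an overlap of 50%. Peak folds have no replicate values, and FPKM of ELF3-2 in flag leaves and of most photoperiod genes is low, which limits their ratios.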
